A study of Mus musculus with 17 samples.

Results

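The nuclear genes for complexes I, III and IV of the mitochondrial respiratory chain were followed across the cell types of mouse skin and kidney. Members were all genes whose symbol starts with Nduf or Uqcr, or with Cox4, Cox5, Cox6, Cox7 or Cox8, except Ndufa4l2, which was left out by the rule. Of 72 matching genes, 71 were present in both gene lists on which the libraries had been counted and were kept, out of 30406 shared genes, and Ndufb1-ps was left out because 1 list lacks it. The 71 genes comprised 7 core and 29 accessory genes of complex I, 8 complex I assembly factors, 8 genes of complex III, 18 of complex IV and Cox7a2l, which encodes a factor that joins complexes into supercomplexes. They lie on 19 chromosomes, with 3 of them on X.

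Complex I takes electrons from NADH, complex III passes them from ubiquinol to cytochrome c, and complex IV, or cytochrome c oxidase, hands them to oxygen, while the protons moved across the inner membrane drive ATP synthase. Most subunits are encoded in the nucleus and are made together with a smaller set encoded in mitochondrial DNA, and kidney tubule segments that move much salt are rich in mitochondria. Several complex IV subunits exist as pairs of genes, a widely expressed form and a form known from striated muscle (Cox6a2, Cox7a1, Cox8b), lung and vessel wall (Cox4i2) or testis (Cox6b2, Cox7b2, Cox8c).

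Promoters are shown because members moved together between cell types. RefSeq promoter windows on GRCm38.p6 were matched by symbol for 58 of the 71 members and searched on both strands. The letters searched for the factor NRF1, GCGCA and GCGC with 1 base between them, occurred in 11 of 58 member windows (18.97%). They occurred in 10.06% of the windows of 11000 genes expressed in these cells and in 5.188% of all 27025 windows. The YY1 letters AAGATGGC were found in 8 member windows (13.79%), compared with 4.773% of expressed and 3.19% of all windows. Stretches of 4 members with the NRF1 letters, in capitals, are given 5′ to 3′ on the strand of the gene, each upstream of the RefSeq start site of its window. GENCODE starts can differ, and the Ndufb4 stretch lies inside the gene as GENCODE annotates it.
Ndufb4 at chr16:37654371-37654400, minus strand: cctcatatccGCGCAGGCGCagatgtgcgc
Ndufa11 at chr17:56717692-56717721, plus strand: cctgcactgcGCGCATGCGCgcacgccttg
Ndufaf4 at chr4:24897960-24897989, plus strand: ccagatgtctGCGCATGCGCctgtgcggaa
Cox6a1 at chr5:115349101-115349130, minus strand: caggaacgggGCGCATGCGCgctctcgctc

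Shares of the other motifs were compared with those of the expressed genes in the same way. The ETS letters CCGGAAG were found in 11 members (18.97%, compared with 17.61% of expressed genes), the GC box GGGGCGGGG in 7 (12.07%, compared with 23.34%), the ERR letters AAGGTCA in 3 (5.172%, compared with 4.091%), TATAAA in 6 (10.34%, compared with 10.22%) and the MEF2 letters CTA and TAG with 4 bases between them in 2 (3.448%, compared with 3.582%). The cAMP response element TGACGTCA was found in 4 (6.897%, compared with 3.3%). The E-box CAGCTG was found in 5 (8.621%, compared with 18.53%). Of the isoform genes with restricted expression, windows were matched for Cox7a1, Cox8b and Cox6b2, and the bases just before the RefSeq start sites of their windows, which for Cox7a1 run past the GENCODE start, are shown with the E-box letters in capitals. These letters are present in the Cox8b stretch, and none of the motifs searched lies in the stretches of Cox7a1 and Cox6b2.
Cox8b at chr7:140900447-140900566, minus strand: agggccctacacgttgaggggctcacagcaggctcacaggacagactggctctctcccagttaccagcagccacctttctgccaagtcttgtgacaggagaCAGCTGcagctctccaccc
Cox7a1 at chr7:30184051-30184170, plus strand: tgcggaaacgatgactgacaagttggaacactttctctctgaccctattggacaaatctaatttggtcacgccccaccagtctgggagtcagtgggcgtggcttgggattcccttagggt
Cox6b2 at chr7:4753095-4753214, minus strand: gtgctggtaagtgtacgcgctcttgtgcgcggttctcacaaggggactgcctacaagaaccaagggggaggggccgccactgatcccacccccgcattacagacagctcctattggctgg

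Single cells were sequenced with 10x Genomics 3′ v3 chemistry in 8 skin and 9 kidney libraries from 8-week-old mice that carried PDGFRβ-Cre and the Z/EG reporter, with or without a SARA transgene (SARATg and SARAWT). SARA, encoded by Zfyve9, binds Smad proteins at TGF-β receptors. Skin was taken after subcutaneous PBS (3 SARAWT and 1 SARATg library) or bleomycin at 20 mg/kg 3 times a week for 2 weeks (3 SARAWT and 1 SARATg), and kidney after intraperitoneal vehicle (3 SARAWT and 2 SARATg) or aristolochic acid at 5 mg/kg 3 times a week for 3 weeks (3 SARAWT and 1 SARATg). The schedules are those of the labels, and the study's methods differ for bleomycin, giving daily injections and a harvest after a pause. Tissue was digested with Liberase and GFP+ cells were sorted. GFP marks any cell whose lineage once had PDGFRβ promoter activity, including leukocytes, and epithelial, endothelial and muscle cells were also recovered, so the sort did not define a cell type. The labels do not say whether a library came from 1 animal or from pooled animals, so p-values measure the spread between libraries only.

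Libraries held 3355217 to 137093834 UMIs (unique molecular identifiers, each 1 captured mRNA). Cells were assigned to classes with lists of markers that include no member gene, UMIs of the cells of a class were added up within each library, and levels are UMI counts scaled to a total of 1000000 (CPM) over libraries with at least 20 cells of a class. A 3′ library gives 1 tag per mRNA, so levels of different genes were compared without a length correction. Before any comparison, 3 libraries went against their labels in Zfyve9: the library labelled SARAWT PBS 3 had 621 CPM, compared with 7.75 to 26.0 CPM in the other 5 SARAWT skin libraries and 224 and 314 CPM in SARATg skin. In kidney, the library labelled SARAWT aristolochic acid 1 had 167 CPM and the library labelled SARATg aristolochic acid 1 had 20.7 CPM, compared with 11.1 to 31.8 CPM in the other 5 SARAWT libraries and 91.7 and 93.4 CPM in the SARATg vehicle libraries. The treatment and genotype comparisons fitted with edgeR were also fitted without these libraries, and the summed levels by treatment were also compared without them. Of the barcodes of a library, 7.38% to 55.5% were shared with another skin library in the 4 SARAWT skin libraries counted on the longer gene list, at most 0.824% in the other skin libraries and 1.66% to 2.13% in kidney.

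The 71 genes together made up 6.31% ± 1.24 (SD, n = 9 libraries) of all UMIs in distal convoluted tubule cells, which reabsorb salt through the thiazide-sensitive cotransporter. Intercalated cells, the acid and base secreting cells of the collecting duct, had 5.73% ± 1.38 (SD, n = 8) and thick ascending limb cells 5.2% ± 0.782 (SD, n = 8). Proximal tubule cells had 3.58% ± 0.348 (SD, n = 9) and principal cells 2.82% ± 0.0867 (SD, n = 4). The SD ranges of the 3 highest classes overlapped, whereas those of thick ascending limb and proximal tubule, of proximal tubule and principal cells, and of principal and endothelial cells did not.

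All non-tubular kidney classes were below 2%, from endothelial cells at 1.76% ± 0.142 (SD, n = 8) to B cells at 1.11% ± 0.205 (SD, n = 9), and neighbours in that order overlapped. In skin, melanocytes had 2.36% in the 24 cells of 1 library, and among classes with more libraries the highest share was in muscle cells, 2.04% ± 0.279 (SD, n = 4), and the lowest in neutrophils, 0.486% ± 0.136 (SD, n = 6). Mural cells, the pericytes and smooth muscle cells of vessels, had 1.5% ± 0.237 (SD, n = 2), keratinocytes 1.49% ± 0.122 (SD, n = 7), fibroblast-like cells 1.15% ± 0.286 (SD, n = 8) and macrophages 1.06% ± 0.152 (SD, n = 8). Among skin classes with at least 3 libraries, only the steps from muscle cells to keratinocytes and from mast cells to neutrophils exceeded the SD ranges.

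**Figure D1:**
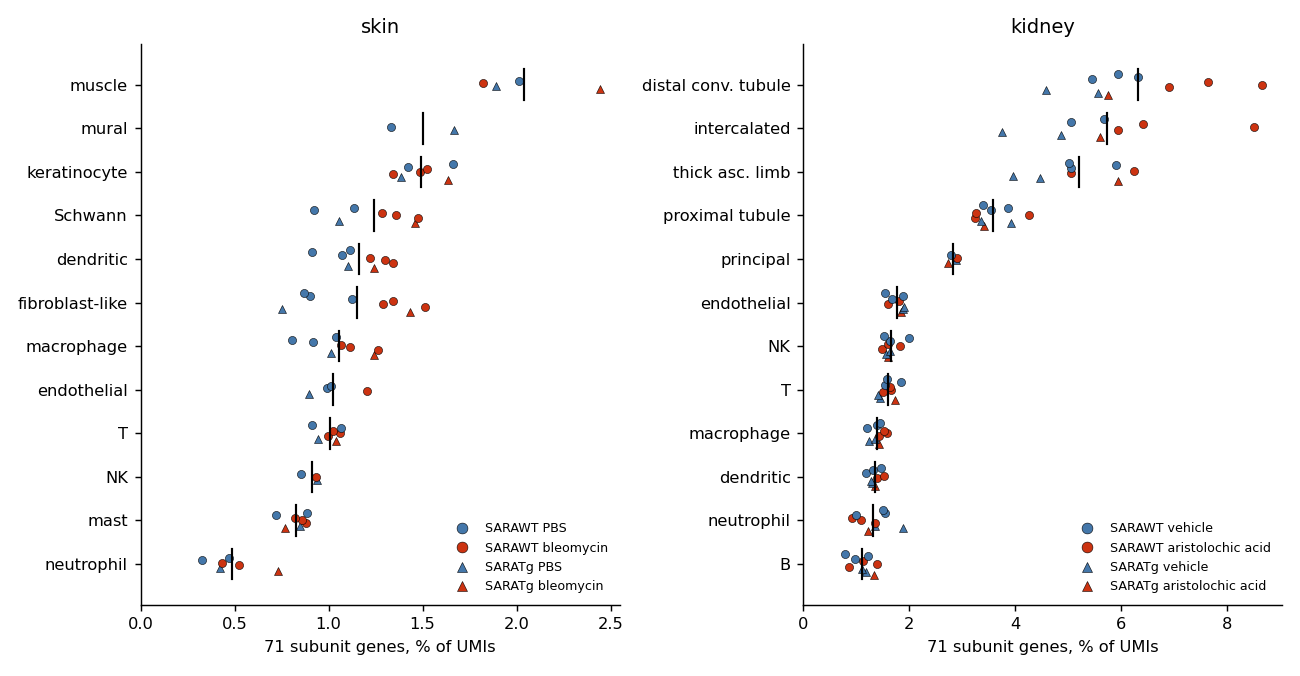
Share of UMIs taken by the 71 subunit genes (x axis, percent) in each cell class (rows) of skin and kidney; each point is 1 library with at least 20 cells, coloured by treatment and shaped by genotype, and the bar is the mean. Tubule segments stand to the right of all other kidney classes, with the distal convoluted tubule highest at 6.31%, and skin neutrophils are lowest at 0.486%.

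Single members were also ranked by class, and since they make up the sum, their order is not separate from it. How often other genes were highest or lowest in these classes was not counted. Mitochondrially encoded genes are in the total here, and the order of the 2 highest kidney classes, whose SD ranges overlap, depends on that. Among classes with at least 3 libraries, 67 members had at least 10 CPM in some kidney class, of which 48 had their highest mean in the distal convoluted tubule, 13 in intercalated cells, and 2 each in the proximal tubule, the thick ascending limb and dendritic cells, while 41 had their lowest mean in B cells. In skin, likewise, 56 of 67 were highest in muscle cells and 51 were lowest in neutrophils. Complex IV genes contributed 25853 of the 63079 CPM of the distal convoluted tubule, accessory complex I genes 22445 CPM, complex III 10331 CPM, core complex I genes 3572 CPM and assembly factors 572 CPM. Complex I is split here into accessory and core genes, so this is no ranking of whole complexes. These groups had the same order in the proximal tubule, with 13943, 13528, 5789, 1944 and 404 CPM.

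The most abundant member was Cox8a in 6 kidney classes, among them intercalated cells with 3617 ± 797 CPM (SD, n = 8), and Cox4i1 in 5 kidney and 9 skin classes. Both encode complex IV subunits. Proximal tubule cells differed in that Ndufa4 came first, with 1904 ± 276 CPM (SD, n = 9); its protein, named for complex I, is now known as a complex IV subunit. Cox6c led in the distal convoluted tubule with 3815 ± 947 CPM (SD, n = 9) and in skin fibroblast-like cells with 785 ± 67.7 CPM (SD, n = 8). At the other end, Cox7b2 and Cox8c had a mean of at most 0.218 CPM in every class.

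Subunits encoded in mitochondrial DNA did not keep the same order as the nuclear members. The 11 mitochondrially encoded genes of complexes I, III and IV took 18.4% ± 3.07 (SD, n = 8) of UMIs in intercalated cells, 15.9% ± 6.60 (SD, n = 8) in the thick ascending limb, 12.4% ± 1.96 (SD, n = 9) in the proximal tubule and 11.2% ± 5.35 (SD, n = 9) in the distal convoluted tubule. Skin mural cells had 5.58% ± 1.40 (SD, n = 2) and skin fibroblast-like cells 1.77% ± 0.396 (SD, n = 8). Because mitochondrial transcripts enter the total, the order at the top depends on the denominator. With mitochondrially encoded genes left out of it, intercalated cells had 73652 ± 15431 CPM of members (SD, n = 8). The distal convoluted tubule then had 73240 ± 12792 CPM (SD, n = 9), so the 2 classes were level within their SD ranges. Cells above 50% mitochondrial UMIs in kidney and 20% in skin had been removed beforehand.

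**Figure D2:**
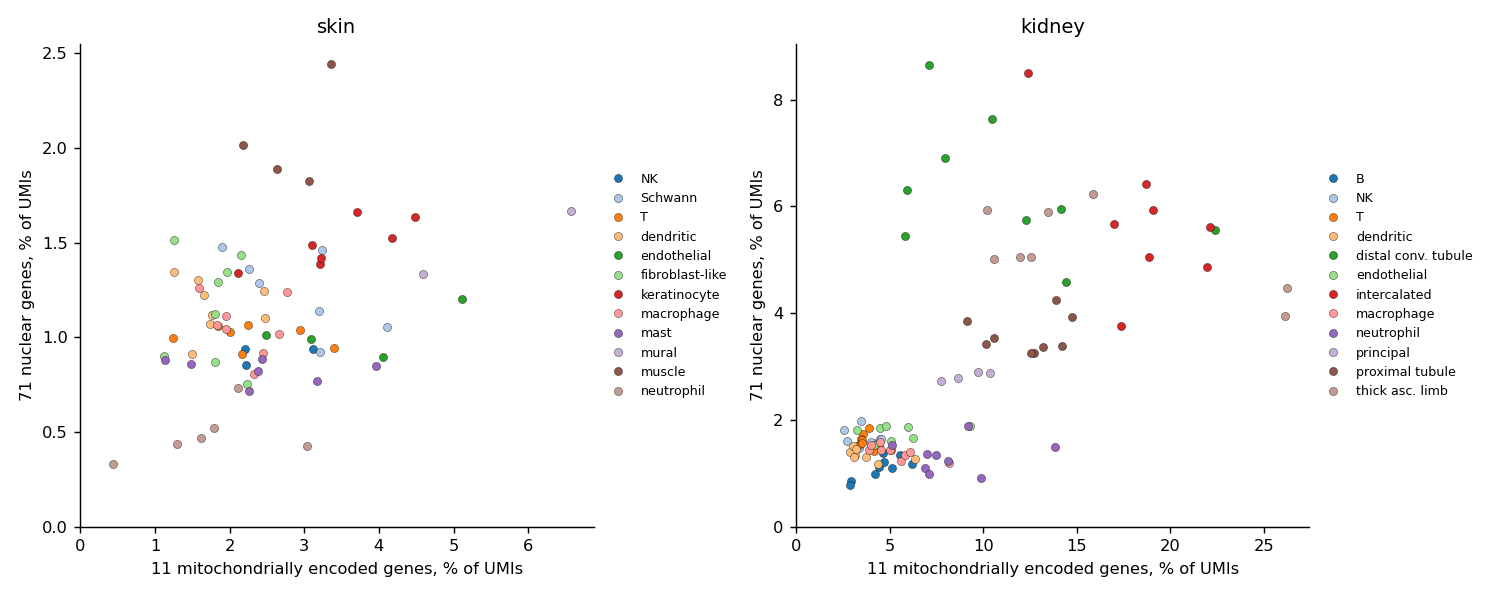
Share of UMIs from the 71 nuclear members (y axis, percent) against that from the 11 mitochondrially encoded genes of the same complexes (x axis, percent); each point is 1 library of 1 class, coloured by class. Kidney tubule classes spread to the right and upward, with distal convoluted tubule points high at mitochondrial shares below, within and above those of the proximal tubule.

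Proximal tubule cells, which reabsorb most filtered solutes, were compared with endothelial cells of the same 8 libraries. Uqcrfs1, the Rieske iron-sulfur protein of complex III, had 421 (lowest), 571 (median) and 795 CPM (highest) over 9 proximal tubule sums and 126, 179 and 253 CPM over 8 endothelial sums. These ranges did not overlap. Its log2 fold change was 2.31 ± 0.171 (SE; edgeR adjusted p = 1.77e-07), and fold changes here and below are relative to TMM normalization, so they differ from the ratio of CPM. Complex III Uqcr10 was higher by 2.17 ± 0.163 and the core subunit Ndufs1 by 2.00 ± 0.142 on the log2 scale.

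In this comparison 66 of 69 members tested were higher and 2 lower, where 35.3% of all genes tested were higher and 30.6% lower. The median log2 fold change was 1.56 for members and 0.07 for all genes. All 7 core subunits, all 29 accessory subunits, all 8 assembly factors and all 8 complex III genes were higher, as were 14 of 16 complex IV genes. Cox7a2l was the only member not called, at 0.14 ± 0.176, and Cox4i2 and Cox8b, both with a mean under 2 CPM or set by 1 endothelial library at 47.1 CPM, were the 2 lower ones. All 11 mitochondrially encoded genes, all 16 ATP synthase genes, all 4 complex II genes and 6 of 8 regulators of mitochondrial biogenesis were also higher, as were 9 of 14 glycolysis genes, with 5 lower. Proximal tubule markers summed to 78.6 to 1495 CPM in endothelial cells, compared with 5494 to 7862 CPM in the proximal tubule, and their part in the endothelial levels was not tested.

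Distal convoluted tubule cells had more of most members than proximal tubule cells. Cox7b, a complex IV subunit, had 1510, 1961 and 3016 CPM (lowest, median, highest of 9 libraries) in the distal convoluted tubule and 596, 703 and 860 CPM in the proximal tubule, without overlap, with a log2 fold change of 1.29 ± 0.181 (SE; edgeR adjusted p = 1.39e-05). Ndufv2, a core subunit of the NADH-binding arm, had 486, 741 and 999 CPM compared with 231, 312 and 360 CPM, a log2 difference of 1.06 ± 0.170. The assembly factor gene Ndufaf5 differed by 1.31 ± 0.163, Cox6c by 1.02 ± 0.163 and Cox5b by 0.98 ± 0.166, each higher in 9 of 9 libraries.

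Of 67 members tested, 41 were higher and 3 lower, compared with 20.7% and 32.4% of all genes. The medians were 0.49 for members and -0.16 for all genes. The members called higher were 4 of 7 core subunits, 19 of 29 accessory subunits, 6 of 8 complex III genes, 10 of 14 complex IV genes and 2 of 8 assembly factors. The 3 lower ones were Cox6a2 (-6.50 ± 0.613), Cox6b2 (-1.89 ± 0.440) and Ndufaf6 (-0.59 ± 0.153). Of the 11 mitochondrially encoded genes, 0 were higher and 4 lower, a share of lower calls close to that of all genes. Thick ascending limb markers summed to 3585 to 7322 CPM in the distal convoluted tubule class, beside 9223 to 18004 CPM of its own markers, and their part in the result was not tested.

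In the collecting duct, 32 of 66 members were higher in intercalated than in principal cells and 0 lower, compared with 8.31% and 10.2% of all genes, in the 3 libraries with at least 20 cells of both. The median log2 fold change was 0.90, compared with -0.04 for all genes. Cox7a1, the form of subunit VIIa known from heart and skeletal muscle, had 44.1, 297 and 741 CPM (lowest, median, highest of 8 libraries) in intercalated cells and 30.9, 37.8, 50.01 and 66.0 CPM in the 4 sums of principal cells. The ranges overlapped through the intercalated cells of SARATg vehicle 2, at 44.1 CPM from 27 cells, and within libraries Cox7a1 was higher in 3 of 3, by 2.14 ± 0.359 (SE; edgeR adjusted p = 0.00134).

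Complex III genes were among those with the largest differences, with Uqcrfs1 at 1.70 ± 0.317, Uqcrb at 1.70 ± 0.309 and Uqcrc1 at 1.56 ± 0.277. The core subunit Ndufv1, which binds NADH, differed by 1.55 ± 0.276. Called were 6 of 7 core subunits, 6 of 8 complex III genes, 9 of 13 complex IV genes and 10 of 29 accessory subunits, together with 8 of 11 mitochondrially encoded, 10 of 16 ATP synthase and 4 of 4 complex II genes, whereas glycolysis genes were called in 1 of 13. With 3 libraries the count was unstable. It was 11 without SARAWT aristolochic acid 1, a library that goes against its label, and 10 when the deepest 5% of cells were removed, a setting that also left 2 of the 3 libraries with at least 20 cells of both. Of all genes, 6.83% and 5.44% were called higher under these settings.

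Among skin classes with at least 3 libraries, the muscle class had the highest summed level, and isoforms known from striated muscle were counted in it. Its gate used Myf5, Pax7, Myod1, Chodl, Des, Cdh15, Myog, Musk, Fgfr4 and Chrna1, which include markers of satellite cells and myoblasts. Which cells of the class, or fibre RNA in them, gave the isoform counts was not tested. Cox6a2 had 422, 304, 212 and 179 CPM in SARATg PBS 1, the library labelled SARAWT PBS 3, SARATg bleomycin 1 and SARAWT bleomycin 3. Fibroblast-like cells had at most 5.68 CPM in any library. The log2 fold change between the classes in these 4 libraries was 6.80 ± 0.465 (SE; edgeR adjusted p = 8.33e-05).
Cox8b had 482, 596, 173 and 119 CPM in the same order (6.74 ± 0.981) and Cox7a1 had 199, 276, 53.1 and 38.6 CPM (4.61 ± 0.557). For both genes the 2 PBS libraries stood above the 2 bleomycin libraries, and Cox8a, the widespread form of subunit VIII, was ordered the other way, with 488, 512, 1340.5 and 1215 CPM. With 1 library per genotype and treatment, no test was made of this difference.

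Restricted forms made up 58.1% ± 18.7 (SD, n = 4) of Cox6a1 and Cox6a2 UMIs, 31.0% ± 24.1 of Cox8a and Cox8b UMIs and 19.9% ± 15.3 of Cox7a1 and Cox7a2 UMIs in muscle cells. In all, 38 of 69 members were higher and 0 lower than in fibroblast-like cells, compared with 8.59% and 12.6% of all genes, with medians of 0.76 and -0.10. They included 11 of 16 complex IV, 7 of 8 complex III, 5 of 7 core and 14 of 29 accessory complex I genes. Ndufaf4, a complex I assembly factor, differed by 1.93 ± 0.327 and Cox5a by 1.45 ± 0.272. ATP synthase genes were called in 13 of 15 and mitochondrially encoded genes in 1 of 11. The count depended on single libraries, with 10, 22, 24 and 9 members called without SARATg bleomycin 1, SARATg PBS 1, SARAWT bleomycin 3 and the library labelled SARAWT PBS 3, where 5.01%, 6.88%, 5.64% and 5.39% of all genes were called higher. Over the 7 libraries with at least 5 muscle cells, 40 were higher and 1, Cox4i2, lower (-1.37 ± 0.479), compared with 12.9% and 19% of all genes. In SARAWT PBS 1, the 13 cells passing the muscle gate had no UMI of Cox6a2 or Cox8b.

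**Figure D3:**
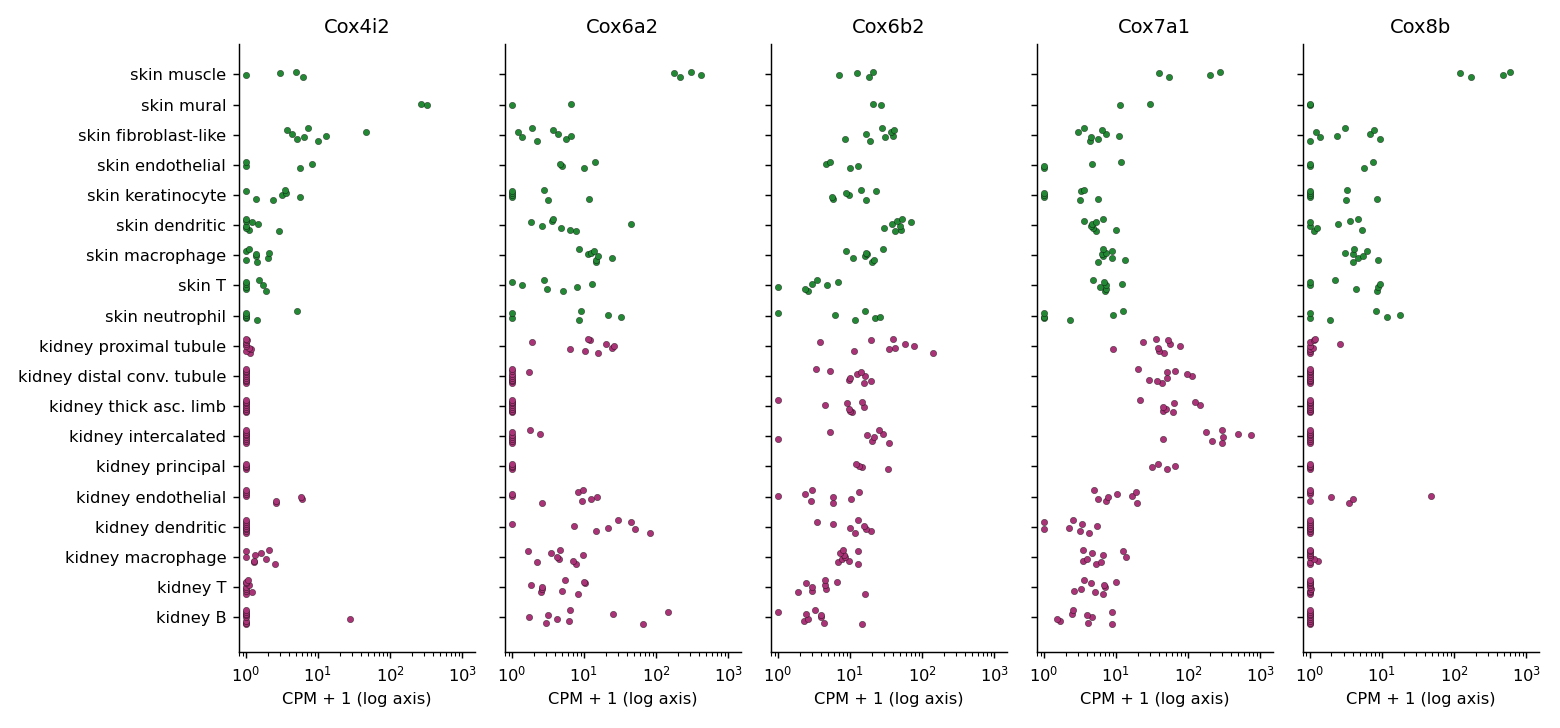
Levels of 5 complex IV isoform genes (columns; x axis, CPM + 1, log axis) in cell classes (rows); each point is 1 library with at least 20 cells, green for skin and purple for kidney, and points at the left edge are libraries without a UMI of the gene. Cox4i2 stands out in skin mural cells, Cox6a2 and Cox8b in skin muscle, and Cox7a1 in skin muscle and kidney intercalated cells.

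Mural cells, the pericyte and smooth muscle class at which the reporter was aimed, were marked among the members by Cox4i2. It had 267 and 326 CPM in the 2 libraries with at least 20 mural cells, compared with 6.36 and 4.05 CPM in their fibroblast-like cells, without overlap and with a log2 fold change of 5.56 ± 0.352 (SE; edgeR adjusted p = 2.4e-14). These libraries were SARATg PBS 1 and the one labelled SARAWT PBS 3, which goes against its label. Both had high Zfyve9 (314 and 621 CPM), and neither was treated with bleomycin. With at least 5 cells, a limit added to the plan, the 7 skin libraries had 251 (lowest), 338 (median) and 579 CPM (highest) in mural cells. Cox4i2 was above the fibroblast-like cells of the same library in 7 of 7 (5.17 ± 0.392). The highest fibroblast-like value, 45.9 CPM, was in SARAWT PBS 1, and in skin macrophages the gene had at most 1.1 CPM.
In kidney, 4 libraries with 8 to 15 mural cells had 202, 435, 442 and 596 CPM. Cox4i2 made up 29.5% ± 3.60 (SD, n = 7) of Cox4i1 and Cox4i2 UMIs in skin mural cells and 28.3% ± 9.88 (SD, n = 4) in kidney mural cells, and 1.42% ± 1.54 (SD, n = 8) in skin fibroblast-like cells. Cox4i1 remained the major form, with 697 to 1036 CPM in skin mural cells.

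In all, the 2 libraries gave 21 of 68 members, Cox4i2 among them, higher in mural than in fibroblast-like cells and 0 lower, compared with 11.1% and 14.7% of all genes (25.8% together), with medians of 0.49 and -0.15. Cox8a differed by 1.38 ± 0.276, Ndufa12 by 1.37 ± 0.294 and Cox7a1 by 2.27 ± 0.773. Called were 4 of 7 core, 9 of 29 accessory, 3 of 8 complex III and 5 of 15 complex IV genes, and 11 of 11 mitochondrially encoded genes (median 1.2). Over 7 libraries with at least 5 mural cells, 19 members were higher and 2, Ndufa4 (-0.87 ± 0.295) and Ndufs4 (-0.72 ± 0.276), were lower, compared with 14.8% and 22.5% of all genes (37.4% together). The fit with 2 libraries has 1 residual degree of freedom, and it called 9 members by DESeq2, 7 without the library block and 12 with a stricter filter on mitochondrial UMIs, where 7.11%, 8.05% and 9.31% of all genes were called higher. Muscle markers summed to 469 to 916 CPM in mural cells, compared with 29.6 to 73.6 CPM in fibroblast-like cells, and their part was not tested.

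Neutrophils had lower levels than macrophages of the same 6 skin libraries. Ndufc2, an accessory complex I subunit, had 17.2, 22.3 and 62.1 CPM (lowest, median, highest) in neutrophils, and in macrophages 104, 141 and 229 CPM over 8 libraries, without overlap, with a log2 fold change of -1.84 ± 0.252 (SE; edgeR adjusted p = 1.2e-06). Ndufa9 differed by -1.55 ± 0.293, Ndufa5 by -1.40 ± 0.259, Ndufv3 by -1.36 ± 0.260 and Uqcrb by -1.33 ± 0.262.

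In all, 45 of 68 members were lower and 2 higher in neutrophils, compared with 26.1% and 23.1% of all genes (49.2% together), with medians of -0.82 and -0.22. All 8 complex III genes, 21 of 29 accessory and 6 of 7 core complex I genes, 8 of 15 complex IV genes and Cox7a2l were lower, as were 12 of 16 ATP synthase and 3 of 4 complex II genes. Mitochondrially encoded genes were called in 0 of 11 by edgeR (median 0.03, and 0 at an unadjusted p under 0.05). Of 14 glycolysis genes, 4 were higher and 0 lower. The 2 members called higher were Ndufaf7, a methyltransferase that acts in complex I assembly, with 24.7 and 8.86 CPM in neutrophils and macrophages (1.90 ± 0.326, higher in 5 of 6 libraries), and Cox8b, with 5.93 and 3.80 CPM (1.45 ± 0.561, higher in 3 of 6 libraries). Cox8a, the most abundant member in neutrophils at 490 ± 107 CPM (SD, n = 6), had a log2 difference of -0.01 ± 0.222. Neutrophils had a median of 2355 to 3013 UMIs per cell and macrophages 5042 to 12830. With DESeq2's size factors in edgeR the median of all genes moved from -0.22 to -0.49, and 1 member was higher and 54 lower, where 19.3% and 37.1% of all genes were.

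Isoforms and Cox7a2l showed patterns of their own. Cox7a1 had 320 ± 212 CPM (SD, n = 8) in intercalated cells, where it made up 12.5% ± 5.26 of Cox7a1 and Cox7a2 UMIs, compared with 68.9 ± 43.0 CPM (SD, n = 8) in the thick ascending limb, 55.4 ± 30.8 CPM (SD, n = 9) in the distal convoluted tubule and 41.3 ± 19.5 CPM (SD, n = 9) in the proximal tubule. Cox6b2, known from sperm, had 46.9 ± 42.8 CPM (SD, n = 9) in the proximal tubule, compared with 4.6 ± 4.33 CPM (SD, n = 8) in kidney endothelial cells (3.28 ± 0.401, edgeR adjusted p = 1.19e-05), and 46.5 ± 12.2 CPM (SD, n = 8) in skin dendritic cells, where it made up 8.69% ± 2.63 of Cox6b1 and Cox6b2 UMIs. Cox6a2 was also counted outside muscle, with 0 (lowest), 24.9 (median) and 80.6 CPM (highest of 8 libraries) in kidney dendritic cells, 0.743, 5.24 and 146 CPM in 9 sums of kidney B cells and 109 CPM in the 27 skin B cells of 1 library.

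Cox7a2l had its lowest kidney mean in the proximal tubule, 216 ± 30.4 CPM (SD, n = 9), and its highest in dendritic cells, 545 ± 86.3 CPM (SD, n = 8), a 2.52-fold range, compared with a median range of 6.29-fold over members. In skin, the narrowest range over the 11 classes with at least 3 libraries was that of Cox8a, 1.89-fold, compared with a median of 5.44-fold. Cox8a lay outside that range in classes with fewer libraries, at 1437 CPM in melanocytes, 1190 CPM in mural cells and 331 CPM in B cells. Likeness of pattern was measured as Pearson's r of log2(CPM + 1) over 173 sums of class and library across 16564 genes. The sums share libraries, so r is a description. Nearest to Cox4i2 were Tusc5 (0.82), Cacna1c (0.80), Slco1c1 (0.76), Kcne4 (0.76) and Carmn (0.75). Only sums of at least 20 cells entered, of which 2 were mural. Among skin classes with at least 3 libraries the highest Cox4i2 mean was 11.1 CPM, so its r rests on few sums with more than low counts. Nearest to Cox8b were Myoz1 (0.86), Myl1 (0.86) and Sln (0.84), and nearest to Cox6a2 was Atp2a1 (0.67). Cox7a1 was nearest to Aif1l (0.80), Rragd (0.80) and Me3 (0.79), and Cox7a2l to Eif3k (0.77) and Pfdn5 (0.75).

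Bleomycin injures the skin and is used to model scleroderma, and its effect on the members was compared in SARAWT fibroblast-like cells. Summed levels were 11237, 9012 and 8680 CPM in PBS libraries 1 to 3 and 15146, 12905 and 13426 CPM in bleomycin libraries 1 to 3, so that all treated libraries were above all controls, 1.43-fold in the mean. Barcodes shared with another skin library were 7.38%, 55.5% and 0.594% in these PBS libraries and 17.6%, 22.1% and 0.594% in the bleomycin libraries. PBS library 3 goes against its label in Zfyve9. Uqcrq, a small complex III subunit, had 198, 151 and 181 CPM with PBS and 390, 302 and 356 CPM with bleomycin. Ndufb8, an accessory complex I subunit, had 108, 72.8 and 82.6 CPM compared with 222, 155 and 170 CPM. For both genes the groups did not overlap, but neither passed the threshold, with log2 fold changes of 1.09 ± 0.240 (SE; edgeR adjusted p = 0.0733) and 1.16 ± 0.262 (adjusted p = 0.0753).

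None of the 69 members tested was called by edgeR over all genes (0 higher and 0 lower; 0.549% of all genes were called, 0.334% as higher), although 48 of them had an unadjusted p under 0.05 (69.6%, compared with 20.7% of all genes tested). By DESeq2, 21 were called higher and 0 lower, where 3.48% of all genes were called higher. Groups did not overlap for 46 members, of which 45 had a higher and 1, Uqcrh, a lower mean CPM with bleomycin, compared with 24.9% of all genes. The median log2 fold change was 0.68 for members, compared with 0.04 for all genes, and it was 0.76 for core, 0.70 for accessory, 0.65 for complex III and 0.80 for complex IV genes. Cox5a had 1.18 ± 0.301 (adjusted p = 0.0925), and Cox4i2, set by SARAWT PBS 1, -1.38 ± 0.722 (adjusted p = 0.321). The 11 mitochondrially encoded genes had a median of 0.21 and 0 calls by edgeR, with 0 at an unadjusted p under 0.05. Among 14 glycolysis genes, 2 were called higher and 0 lower by edgeR, 10 had an unadjusted p under 0.05 and 13 were above 0. The median of the 14 was 1.74.

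The replicate numbers of the skin libraries were taken as pairs, and with the number as a block 21 of 68 members were called, all of them higher, where 4.18% of all genes were called higher. Without SARAWT bleomycin 2, the count was 5, with 1.78% of all genes called higher. Without the library labelled SARAWT PBS 3 it stayed 0, with a median of 0.72. The class changed in other ways too: its own markers summed to 6617 to 9358 CPM with PBS and 4584 to 6611 CPM with bleomycin, macrophage markers in it to 179 to 367 and 91 to 216 CPM, and cells had medians of 11864, 5569 and 14103 UMIs with PBS and 12068, 3341 and 13994 with bleomycin. The part of these shifts in the result was not tested, nor can a change in RNA per cell be told apart from a change in subunit mRNA, since CPM are shares of a cell's total.

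**Figure D4:**
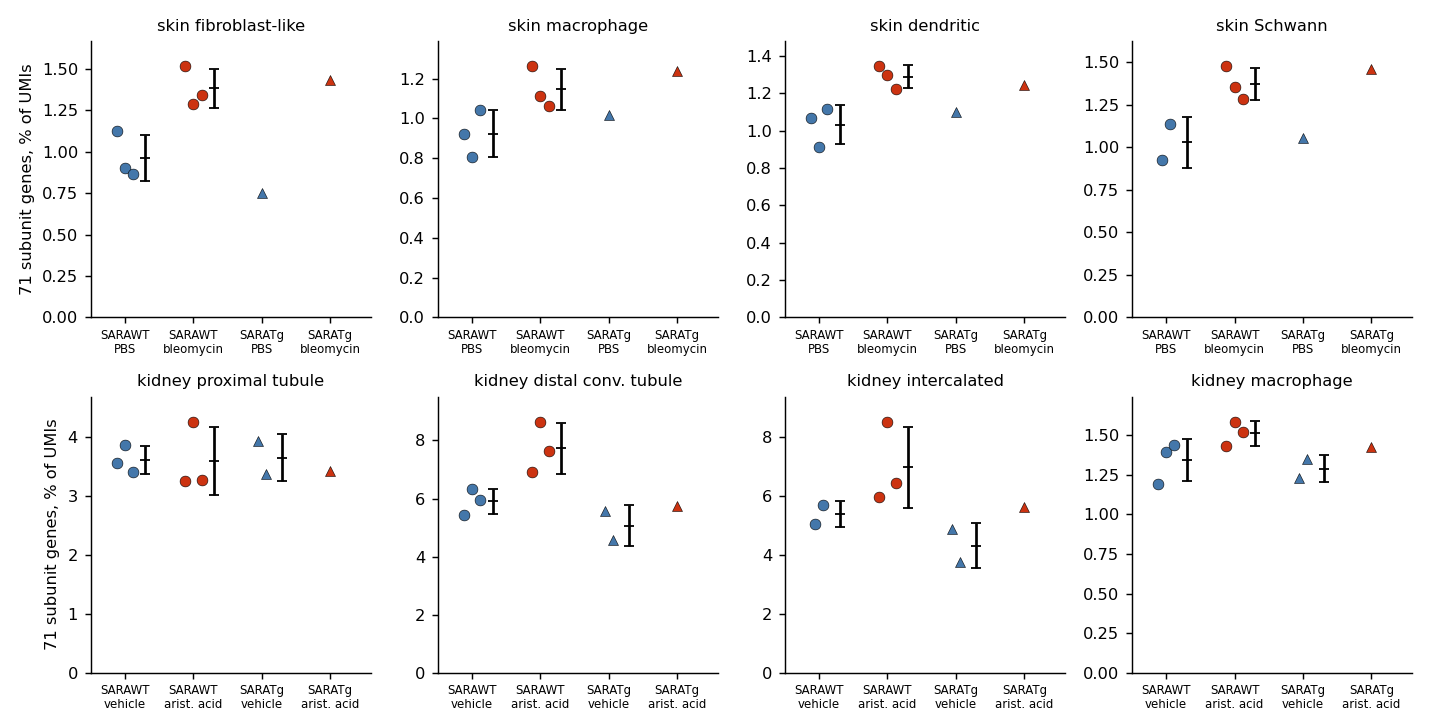
Share of UMIs taken by the 71 subunit genes (y axis, percent) in 4 skin and 4 kidney classes by group (x axis); points are libraries, and bars give the mean ± SD where a group has more than 1 library. In skin fibroblast-like cells the 3 SARAWT bleomycin libraries lie between 1.29% and 1.51% and the 3 PBS libraries between 0.868% and 1.12%.

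In skin macrophages, summed levels were 9195, 8063 and 10415 CPM with PBS and 12607, 11129 and 10642 CPM with bleomycin, above all controls but with the third PBS library, the one that goes against its label, close to the third treated one. Ndufc2 had 137, 104 and 113 CPM with PBS and 229, 179 and 144 CPM with bleomycin, without overlap (0.71 ± 0.191, edgeR adjusted p = 0.096). By edgeR 0 of 68 members were called, compared with 2.28% of all genes, 29 reached an unadjusted p under 0.05 (42.6%, compared with 19% of all genes), and 1 was called higher with DESeq2, by which 2.85% of all genes were. Groups did not overlap for 22 members, all higher in mean CPM with bleomycin, compared with 16.4% of all genes. The median was 0.42, compared with -0.01 for all genes. With SARAWT bleomycin 3 left out 34 members were called, all higher, where 7.31% of all genes were called higher, and with the library labelled SARAWT PBS 3 left out 31 were, where 6.66% of all genes were. Mitochondrially encoded genes had a median of -0.31, with 0 called by edgeR and 3 at an unadjusted p under 0.05. Dendritic cell markers in the macrophages summed to 332 to 564 CPM with PBS and 141 to 268 CPM with bleomycin, and their part was not tested.

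Across the 8 skin classes with at least 2 SARAWT libraries per treatment, summed member levels were higher in every bleomycin library than in every PBS library in 4: fibroblast-like, macrophage, dendritic (1.25-fold) and Schwann cells (1.33-fold, with 2 PBS libraries). They overlapped in T cells, keratinocytes, mast cells and neutrophils, with mean ratios of 1.04, 0.941, 1.06 and 1.2. The two-sided exact permutation p was 0.1 in each of the first 4 classes, the smallest that these numbers of libraries allow, and 0.2 after adjustment over the 8 classes. Sums of the mitochondrially encoded genes were lower in every treated library in macrophages (0.798-fold), Schwann cells (0.683-fold) and T cells (0.770-fold) and overlapped in the other 5 classes (exact permutation p of 0.1, 0.1 and 0.2 for the 3, adjusted 0.4, 0.4 and 0.533), so in macrophages and Schwann cells nuclear and mitochondrial sums were ordered in opposite ways. Without the library labelled SARAWT PBS 3, members were again higher in every treated library in the 4 classes (1.37-fold, 1.33-fold, 1.3-fold and 1.49-fold in the same order, with 1 PBS library left for Schwann cells), and of the 4 overlapping classes, each with 1 PBS library left, the treated libraries were all higher in mast cells and neutrophils and all lower in T cells. The 3 classes with lower mitochondrially encoded sums had 0.749, 0.683 and 0.756 times the PBS level without it, and in neutrophils, which had overlapped at 1.51-fold, the mitochondrially encoded sums of the 2 treated libraries were then 3.53-fold that of the 1 PBS library left.

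SARATg and SARAWT fibroblast-like cells were compared after bleomycin, the only treated SARATg skin library having 14352 CPM of members, within the SARAWT range of 12905 to 15146 CPM. The SARATg PBS library had 7516 CPM, below the 3 libraries labelled SARAWT PBS. Of these, PBS 3, at 8680 CPM, goes against its label in Zfyve9. By edgeR and by DESeq2 0 of 69 members were called, with 0% of all genes called by edgeR, and 1 member, Cox8b, had an unadjusted p under 0.05 (1.45%, compared with 4.1% of all genes). It had no UMI in the SARATg library and a mean of 2.58 CPM in SARAWT. The SARATg value lay outside the SARAWT values for 36 members, 27 of them higher and 9 lower, compared with 45.2% of all genes. The share of all genes called by DESeq2 is not given here, so its count is no result about the members. The median difference was 0.16, compared with 0.00 for all genes. SARATg cells were far deeper, with a median of 35005 UMIs per cell, and 1 library gives no spread of its own, so it was assumed to vary like the others.

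Aristolochic acid is taken up by and injures the proximal tubule. Summed member levels there were 35430, 38542 and 33921 CPM with vehicle and 32481, 42512 and 32586 CPM with aristolochic acid in SARAWT libraries 1 to 3, and the groups overlapped. By edgeR and by DESeq2 0 of 68 members were called, with 0% of all genes called by edgeR, and 6 had an unadjusted p under 0.05 (8.82%, compared with 10.3% of all genes). For DESeq2 the share of all genes is not given here, so its count is no result about the members. The median log2 fold change was -0.23, compared with -0.02 for all genes, with 12 members above 0. It was -0.47 for core subunits, -0.43 for assembly factors, -0.31 for complex III genes, -0.21 for accessory complex I genes and -0.10 for complex IV genes, of which 6 of 15 were above 0. Ndufs7, a core subunit, had means of 319 and 441 CPM with aristolochic acid and vehicle, without overlap (-0.65 ± 0.246, adjusted p = 0.469).

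Groups did not overlap for 7 members, 2 higher and 5 lower, compared with 14% of all genes, so the share of the 68 members was below that of all genes and is no result about them. The 2 higher ones are given by their values. Cox6b2 had 2.85, 18.6 and 38.3 CPM with vehicle and 40.9, 76.9 and 56.9 CPM with aristolochic acid (1.42 ± 0.8, edgeR adjusted p = 0.477), and 10.4 and 33.7 CPM in SARATg vehicle libraries and 143 CPM in the library labelled SARATg aristolochic acid 1, which goes against its label in Zfyve9. Cox6a2 had 0.904, 11 and 10.4 CPM compared with 23.4, 24.8 and 19.4 CPM (1.48 ± 0.730, adjusted p = 0.469). SARAWT vehicle 1 and 2 stood apart with 9603 and 8038 proximal tubule cells, compared with 668 to 2679 in the other libraries, and vehicle 1 had the lowest value of both genes. Without these 2 libraries, and without the 2 libraries that go against their labels, the count of called members was again 0.

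Kidney macrophages had 0 of 67 members called after aristolochic acid by edgeR and by DESeq2, with 0% of all genes called by edgeR and 3 members at an unadjusted p under 0.05 (4.48%, compared with 8.44% of all genes). For DESeq2 the share of all genes is not given here either. Groups did not overlap for 16 members, 14 higher and 2 lower, compared with 11.2% of all genes, and the median was 0.14, compared with -0.01. Ndufa1, an accessory complex I subunit, had means of 230 and 130 CPM with aristolochic acid and vehicle (0.80 ± 0.296, edgeR adjusted p = 0.573). Mitochondrially encoded sums were lower in every treated library, 39218, 45137 and 39823 CPM compared with 81535, 60837 and 50316 CPM with vehicle (exact permutation p = 0.1, the smallest possible, and 0.786 adjusted over 11 classes), with 0 of 11 genes called by edgeR and 6 at an unadjusted p under 0.05. Treated macrophages had medians of 10794, 10696 and 15785 UMIs per cell and vehicle macrophages 5159, 4836 and 10670, and the part of this difference was not tested.

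In 2 classes of the distal nephron, member sums were higher in every library labelled SARAWT aristolochic acid than in every one labelled SARAWT vehicle. Distal convoluted tubule cells had 54459, 63128 and 59418 CPM with vehicle and 69066, 86480 and 76294 CPM with aristolochic acid, 1.31-fold in the mean, from 41 to 256 cells per library. Their own markers summed to 11722 to 18004 CPM with vehicle and 9223 to 10334 CPM with aristolochic acid, and the part of this shift was not tested. Intercalated cells had 50546 and 56778 CPM compared with 59409, 85070 and 64142 CPM, 1.30-fold. SARATg distal convoluted tubule cells had 55597 and 45783 CPM with vehicle and 57485 CPM in the library labelled SARATg aristolochic acid 1, above both, and SARATg intercalated cells 48590.2 and 37578 CPM compared with 56058 CPM. No test was made with 1 treated SARATg library. For SARAWT the two-sided exact permutation p was 0.1 in distal convoluted tubule cells and 0.2 in intercalated cells, and 0.733 for both after adjustment over the 11 classes, where 0.1 is the smallest p that these numbers of libraries allow. By Zfyve9, the library labelled SARAWT aristolochic acid 1 (69066 and 59409 CPM in the 2 classes) and the one labelled SARATg aristolochic acid 1 go against their labels, and the second has SARAWT levels of Zfyve9, while its member sums lay within the SARAWT vehicle range in both classes. With both left out, the 2 remaining treated libraries were above all vehicle libraries in both classes (1.38-fold and 1.39-fold). In the other 9 of 11 kidney classes the sums overlapped, and without the 2 libraries they overlapped in 6 and were higher with treatment in macrophages (2 treated libraries) and in dendritic and thick ascending limb cells (1 treated library each).

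Proximal tubule cells of SARATg and SARAWT vehicle libraries were compared last. By edgeR and by DESeq2 0 of 68 members were called, with 0% of all genes called by edgeR, and 0 members had an unadjusted p under 0.05, compared with 4.67% of all genes. For DESeq2 the share of all genes is again not given. Groups did not overlap for 7 members, 5 higher and 2 lower, compared with 19.4% of all genes. The median was 0.09, compared with -0.08 for all genes. Ndufb3, an accessory complex I subunit, had the largest positive difference, 0.60 ± 0.265 (edgeR adjusted p = 0.891). Cox7a1, with means of 23.6 CPM in SARATg and 36.6 CPM in SARAWT, had -0.49 ± 0.639. Mitochondrially encoded genes had a median of 0.41.

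**Figure D5:**
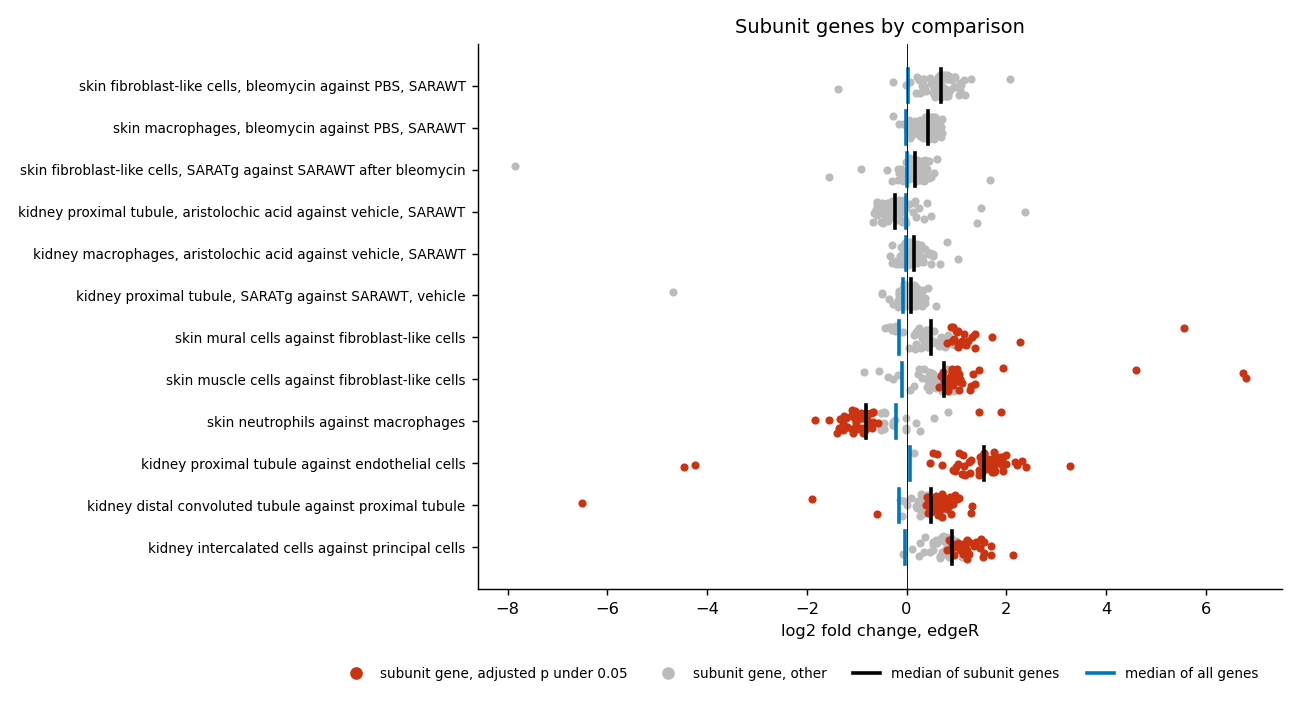
Log2 fold changes of the members from edgeR (x axis) in 12 comparisons (rows); red points have an adjusted p under 0.05, black bars are the medians of the members and blue bars those of all genes. Called members are found only in the 6 comparisons between cell classes, and in skin fibroblast-like cells after bleomycin the members' median is 0.68 without a called member.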

How the data were processed

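The deposited values are whole UMI counts for each gene in each cell, obtained by the authors with Cell Ranger on mm10 (versions 3.0.2 for Cell Ranger and 2.3.4 for Seurat are named in the submitters' notes) without normalization. Lists of 32286 and 31053 genes occur, joined by Ensembl identifier. Members and lists were chosen with earlier results of these data known. Cells needed 200 genes, at most 20% (skin) or 50% (kidney) mitochondrial UMIs, and at least 3 markers of 1 list with a lead of 2. Cells without this lead were set apart, and no doublet caller was run. UMI counts were summed per library and class (at least 20 cells) and tested in R 4.3.3 with edgeR 4.0.16 (TMM, filterByExpr, quasi-likelihood test, two-sided, Benjamini-Hochberg over all genes, threshold 0.05). Group fits used all libraries of a tissue, and class fits had library as a block. The gene list was a covariate in the skin group fits only, since all kidney libraries were counted on the shorter list. SE is the absolute fold change divided by the root of F. DESeq2 1.42.0 was an alternative, with adjusted p left out where it gave none. After group means were taken out, SARAWT skin libraries with the same replicate number correlated over genes (0.242, 0.265 and 0.358 in fibroblast-like cells; 0.243, 0.244 and 0.529 in macrophages), so the numbers were taken to pair them, though they share the gene list too. Libraries of 1 list with different numbers had -0.0288 and -0.144 in fibroblast-like cells but 0.145 and 0.252 in macrophages, where number and list are not separated. In fibroblast-like cells 0 of 69 members and 0.52% of all genes were called between gene lists. Fits were tested on simulated data. Named were isoform, core and Uqcr genes, up to 5 members per direction among those called (at least 10 CPM), members highest or lowest in a class and, chosen after their values were seen, the members named in comparisons without calls and Ndufa4 and Ndufs4. A gene that this rule names is not reported here by itself. Near-identical pseudogenes can share reads with members. Other settings changed size factors, filters, gates, deepest cells, gene list, block and libraries. Added to the plan were the limit of 5 cells and the fits without libraries that go against their labels or without SARAWT vehicle 1 and 2. Promoters came from RefSeq, and 13 members without a window were not searched. Python 3.11.15 with numpy 2.4.6 and pandas 2.3.3 was used.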

Additional observations from a re-analysis of the deposited data

How the results depend on the processing

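Among the members covered by the naming rule, 0 of 2056 values under other settings changed sign where the member was called, and 283 of 4223 where it was not. The settings refit largely the same cells, so a kept sign says little about the calls. A called member lost its call in 98 values with 1 library left out and in 106 under the other settings. When mitochondrially encoded genes were left out, the 2 highest kidney classes were level within their SD ranges. Intercalated cells then had 73652 ± 15431 CPM (SD, n = 8) and the distal convoluted tubule 73240 ± 12792 CPM (SD, n = 9). Of the counts of called members under settings other than leaving out 1 library, 119 stayed within 1.5 times and 15 moved. With 1 library left out, 61 stayed and 9 moved. Counts of 0 that remained 0 are among those that stayed, so these totals do not give the stability of comparisons with calls. Shares of all genes called are given above for some settings only. They are not given for fits without the filter or with the stricter gate, nor for DESeq2 in the SARATg and kidney comparisons. A count without its share shows how the calls depend on the setting and is no result about the members. In fibroblast-like cells after bleomycin, 0 became 21 by DESeq2, 27 without the filter on low counts and 21 with the replicate block. In skin macrophages 0 became 1 by DESeq2, 10 without the filter and 31 without the library labelled SARAWT PBS 3, and the replicate block left it at 0. SARATg against SARAWT after bleomycin and the gene list each gave 1 without the filter. Mural cells had 21 members called, but 9 by DESeq2, 8 without the filter, 12 with the stricter mitochondrial filter and 7 without the replicate block. Muscle cells had 38, but 25 without the filter and 16 with the stricter gate, which left 3 of 4 libraries, and intercalated cells 32, but 10 without the deepest cells, which left 2 of 3 libraries. Leaving out 1 library gave 0 to 5 (fibroblast-like cells), 0 to 34 (skin macrophages), 0 to 1 (kidney macrophages, 1 without SARAWT vehicle 3), 9 to 24 (muscle), 39 to 54 (neutrophils), 66 to 67 (proximal tubule against endothelial), 36 to 50 (distal convoluted tubule) and 11 to 45 (intercalated), and 0 to 0 in the other group comparisons. With mitochondrially encoded genes left out of the total, members had 73652 CPM in intercalated, 31901 in principal, 42359 in proximal tubule and 65020 in thick ascending limb cells, and with the stricter gate 29233 in principal (1 of 4 libraries left), 16209 in kidney endothelial (7 of 8) and 8536 in skin NK cells (2 of 3). Causes were not tested, apart from the denominator that the CPM without mitochondrial genes changes by construction. The kidney replicate numbers did not pair the libraries (correlations of -0.107, 0.305 and 0.232 in proximal tubule), and the block left 0 calls there. Fits that could not be made were SARATg against SARAWT without SARATg bleomycin 1, mural cells without either library, and intercalated cells under the 2 stricter filters.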

Other observations

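Regulators of mitochondrial biogenesis (8 genes, among them Ppargc1a, Esrra and Nrf1) were higher in 2 and lower in 3 in the distal convoluted tubule compared with the proximal tubule, near the 20.7% and 32.4% of all genes, and higher in 3 of 5 in intercalated compared with principal cells, where 8.31% of all genes were, with 0 called in the skin and kidney treatment comparisons by edgeR (0 and 2 at an unadjusted p under 0.05 in fibroblast-like cells and kidney macrophages). Depth limits the low isoforms: in classes of 20 to 40 cells a few UMIs set a value such as that of Cox8b, and a level of 0 there does not show absence. Classes from a marker gate can hold doublets, which were not removed.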
